A study of Mus musculus with 4 samples.

Results

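A set of 10 genes of lymphocyte killing and of the CD8 coreceptor were followed in mononuclear cells of the mouse intestinal lamina propria, the tissue layer under the gut epithelium. They were the granzymes Gzma, Gzmb, Gzmc and Gzmk, the pore-forming protein perforin (Prf1), the granule proteins Nkg7 and Ctsw, both chains of the CD8 coreceptor (Cd8a and Cd8b1) and the T cell surface protein Cd7, 10 of the 48526 gene rows of the deposited table. The list was chosen by function and by measured rlog values, since the high CD8 values of 1 sample and the group differences were already known. All 10 passed the minimum mean level of 4 used for testing, as did 13528 genes in all. The samples came from mice with transfer colitis. In 2 samples the transferred CD4 T cells were wild type, and the labels give pronounced signs of colitis. In the other 2 the transferred CD4 cells were Hobit x Blimp DKO cells, deficient in both transcription factors, and the signs of colitis were mild. The groups are called wild type and DKO after the transferred cells alone. The sources used here do not give the strain, genotype or age of the recipient mice, the knockout alleles, whether recipients had lymphocytes of their own, or whether animals were pooled.

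Cytotoxic lymphocytes store granzymes, a family of serine proteases, in secretory granules together with perforin, which opens the target cell membrane so that granzymes can enter. CD8 is the coreceptor that binds MHC class I. Most conventional cytotoxic T cells carry a heterodimer of its alpha chain (Cd8a) and beta chain (Cd8b1), while many intraepithelial lymphocytes and some dendritic cells carry the alpha chain alone. Transferred CD4 T cells, natural killer cells and other innate lymphocytes can also express granzymes.

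The values are regularized log2 expression (rlog), in which a step of 1 is a doubling and in which differences are shrunk, above all for weakly expressed genes. The depth of each sample is unknown. Sample medians of the tested genes ranged from 8.33 to 8.35. Across these genes, which are not independent replicates, replicates correlated at 0.9976 (wild type) and 0.9966 (DKO), and samples of different groups at 0.9882 to 0.9917. The transcripts of the deleted genes do not check the labels, since every cell of the preparation contributes to them. Zfp683 (Hobit) stood at 3.53 and 3.81 in wild type and 3.29 and 3.38 in DKO, and Prdm1 (Blimp-1) at 11.53 and 11.43 against 11.37 and 11.43. Of the defining T cell genes, Cd4 stood at 12.16, 12.17, 12.00 and 12.16 in wild-type replicates 1 and 2 and DKO replicates 1 and 2, the order used for all values by sample below. In such a mixture of cells, fewer cells of a type and less RNA per cell cannot be told apart.

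The sequence before the start site was looked up for the genes of the granule proteins, to show how the members differ in their proximal promoter. RefSeq start sites (GRCm38.p6) were found for 7 of the 10 members. The 250 bases before the start site are shown 5′ to 3′ for 4 of them, Gzma (chr13:113100982-113101231, minus strand) and Gzmb (chr14:56262335-56262584, minus strand) as the granzymes with the highest levels, Prf1 (chr10:61297586-61297835, plus strand) as their partner in the granule, and Cd8a (chr6:71373177-71373426, plus strand) as the coreceptor gene. Capitals mark matches on either strand to TGTGGT (a core of RUNX sites), GGTGTG (part of T-box sites), TGACGT (a core of the cyclic AMP response element, CRE), TGANTCA (AP-1) or TATAAA.
Gzma: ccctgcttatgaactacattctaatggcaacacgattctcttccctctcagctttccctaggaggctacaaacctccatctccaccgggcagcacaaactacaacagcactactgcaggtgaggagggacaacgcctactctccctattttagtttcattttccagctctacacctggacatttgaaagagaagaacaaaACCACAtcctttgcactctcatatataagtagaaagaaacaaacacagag
Gzmb: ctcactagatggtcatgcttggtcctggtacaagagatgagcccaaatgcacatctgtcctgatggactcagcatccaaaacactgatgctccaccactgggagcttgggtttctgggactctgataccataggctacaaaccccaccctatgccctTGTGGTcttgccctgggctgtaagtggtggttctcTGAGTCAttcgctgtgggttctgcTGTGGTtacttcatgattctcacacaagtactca
Prf1: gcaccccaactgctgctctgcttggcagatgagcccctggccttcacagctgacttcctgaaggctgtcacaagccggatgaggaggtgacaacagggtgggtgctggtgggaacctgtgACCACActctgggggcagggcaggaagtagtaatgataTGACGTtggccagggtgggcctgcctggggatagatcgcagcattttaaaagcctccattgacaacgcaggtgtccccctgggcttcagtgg
Cd8a: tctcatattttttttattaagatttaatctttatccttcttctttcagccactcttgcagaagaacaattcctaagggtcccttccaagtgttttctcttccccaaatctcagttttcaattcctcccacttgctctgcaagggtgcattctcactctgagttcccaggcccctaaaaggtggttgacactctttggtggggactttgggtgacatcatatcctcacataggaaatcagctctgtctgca
The RUNX core occurred in 5 of the 7 members with a promoter (Gzma, Gzmb, Gzmc, Prf1 and Nkg7), and in 4614 of all 32851 RefSeq promoters over the same window. Gzmb held 2 such matches, starting 93 and 34 bases before the start site, and an AP-1 match between them, 58 bases before it. AP-1 matches were found in 6.75% of all promoters. The CRE core was found in Gzmc and Prf1 (6.47% of all promoters), the T-box letters in Gzmk and Nkg7 (16.3%) and TATAAA in 0 of the 7 (12.4%). The Cd8a window held none of these letters. A match is a run of letters and does not show binding.

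Gzma, Gzmb and Nkg7 had the highest levels of the 10 genes when rlog was scaled to length, and Cd8b1 had the lowest. Mean rlog minus log2 of the exonic length in kilobases (GENCODE vM21, GRCm38) was 12.65 for Gzma, 11.97 for Gzmb and 11.58 for Nkg7. It was 10.25 for Cd7, 10.06 for Ctsw, 9.18 for Gzmc, 8.05 for Gzmk and 7.06 for Prf1. Cd8a stood at 6.87 and Cd8b1 at 5.999 on this scale. Neighbours in this order lay closer together than one of them varied over the samples for Gzmb and Nkg7, Cd7 and Ctsw, Prf1 and Cd8a, and Cd8a and Cd8b1. The ranges over samples were 0.42 for Nkg7, 0.30 for Ctsw, 1.49 for Cd8a and 2.05 for Cd8b1.

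Gzma, a granzyme with trypsin-like specificity (ENSMUSG00000023132, GRCm38 chromosome 13, 113093825 to 113100981, minus strand), had rlog values of 12.45 and 12.47 in wild type and 12.69 and 13.01 in DKO. Both DKO samples were above both wild-type samples, and DKO replicate 2 was the highest. The mean was 12.46 ± 0.0146 (SD, n = 2) in wild type and 12.85 ± 0.221 (SD, n = 2) in DKO, a fold of 1.31. In limma over all tested genes with Benjamini-Hochberg adjustment the difference was 0.39 (SE 0.108, adjusted p = 0.0352), with that result known when the list was drawn up. The call was lost on leaving out wild-type replicate 1 (limma adjusted p = 0.137), wild-type replicate 2 (0.124) or DKO replicate 2 (0.0951), the last with a difference of 0.23. Gzmk, which lies 70626 bases from Gzma with no other protein-coding gene between them, had 8.35, 8.68, 8.53 and 8.51. Its wild-type samples enclosed both DKO samples. Gzmk overlaps Esm1 on the other strand. The difference of Gzmk was 0.0033 (SE 0.113, limma adjusted p = 0.991).

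**Figure D1:**
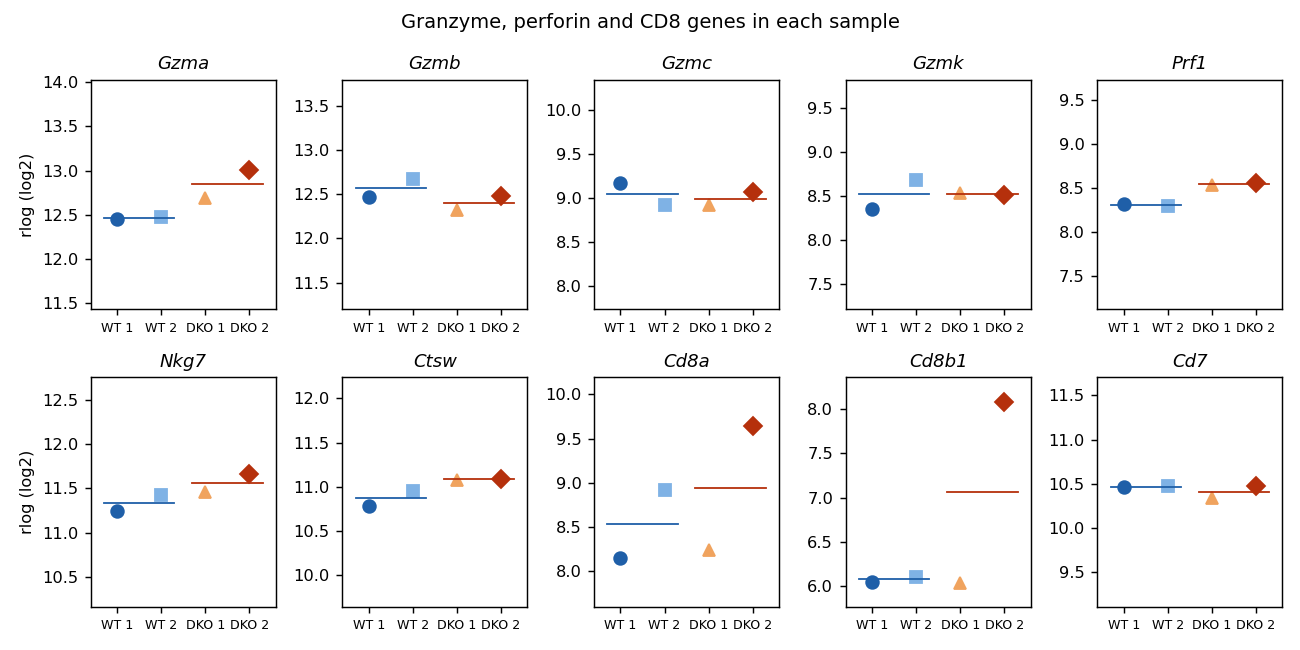
Points give the rlog value (log2, vertical axis) of each of the 10 genes in the 4 samples (horizontal axis), WT for transfer of wild-type and DKO for transfer of double-knockout CD4 cells, and lines give the mean of each group of 2. All panels span the same log2 range; Cd8b1 at 8.09 and Cd8a at 9.64 stand above the other samples in DKO replicate 2, and Gzma lies higher in both DKO samples.

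Gzmb, the granzyme that cleaves after aspartate and activates caspases (ENSMUSG00000015437, chromosome 14, 56258838 to 56262260, minus strand), did not follow Gzma. Its values were 12.47 and 12.67 in wild type and 12.32 and 12.48 in DKO. The groups overlapped, with DKO replicate 2 just above wild-type replicate 1. The difference was -0.17 (SE 0.101, limma adjusted p = 0.336). Gzmc, its neighbour 24181 bases away, stood at 9.17, 8.92, 8.92 and 9.07. Wild-type replicate 1 was highest, and the other wild-type sample was level with DKO replicate 1. Its difference was -0.05 (SE 0.103, limma adjusted p = 0.826) and changed sign without wild-type replicate 1 (0.073) or DKO replicate 1 (0.029).

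The other proteins of the granule had small differences in the direction of Gzma. Prf1 stood at 8.32 and 8.30 in wild type and at 8.54 and 8.56 in DKO. Replicates of Prf1 lay within 0.024 of each other, and the groups did not overlap. The difference was 0.24 (SE 0.0891, limma adjusted p = 0.102). Nkg7, a membrane protein of cytotoxic granules needed for their release, had 11.25 and 11.43 against 11.46 and 11.67. Ctsw, a cysteine protease of cytotoxic lymphocytes, had 10.79 and 10.95 against 11.08 and 11.09. In both genes the groups were apart, but the lowest DKO sample lay closer to the highest wild-type sample than the wild-type samples lay to each other. The difference was 0.22 for Nkg7 (SE 0.0975, limma adjusted p = 0.172) and 0.22 for Ctsw (SE 0.0841, limma adjusted p = 0.122). Ctsw overlaps Fibp on the other strand. The libraries were stranded per the labels, but the sources used here do not say whether the counting used the strand.

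Counted together, 1 of the 10 genes passed the threshold, against 14.8% of all tested genes. The groups did not overlap in 4 of the 10 (Gzma, Prf1, Nkg7 and Ctsw), against 55.3% of tested genes. All 4 lay higher in DKO and 0 lower, where 25.0% of all tested genes lay higher and 30.3% lower without overlap. Averages were higher in DKO for 7 genes and lower for 3, with a median difference of 0.22, where the median over all tested genes was -0.022. Nothing is read from these counts, because the values were known when the list was made. With 2 samples in each group, an exact permutation test of a single gene cannot go below p = 0.333 (two-sided), so it was not used.

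The CD8 genes set DKO replicate 2 apart. Cd8b1 (ENSMUSG00000053044, chromosome 6, 71322788 to 71337494, plus strand) had rlog values of 6.04, 6.10, 6.04 and 8.09. The wild-type samples differed by 0.064 and DKO replicate 1 was level with them, while DKO replicate 2 exceeded the highest of them by 1.99, which is 3.96-fold on this scale. Cd8a (ENSMUSG00000053977, chromosome 6, 71373427 to 71379173, plus strand), the next protein-coding gene, 35932 bases away, had 8.15, 8.92, 8.23 and 9.64. DKO replicate 2 was highest again, by 0.72, but wild-type replicate 2 also stood 0.77 above wild-type replicate 1, with no such step in Cd8b1. The sample values chose these genes for description, so no test is given. The group averages of both genes rested on that 1 sample. The DKO average exceeded that of wild type by 0.99 for Cd8b1 and 0.40 for Cd8a, and without DKO replicate 2 these differences were -0.037 and -0.30.

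Cd8b1 had the largest such excess in DKO replicate 2 of the 12678 tested genes with an established symbol, and Cd8a ranked 4. Of all tested genes, 22 stood over 0.5 above the other samples in DKO replicate 2, and 1, Cd8b1, stood over 1 above them. The number of such genes was not particular to this sample. Counted in the same way, 11 genes stood over 0.5 in wild-type replicate 1, 27 in wild-type replicate 2 and 61 in DKO replicate 1. Over 1 the counts in these samples were 3, 3 and 0. The 10 largest, by a rule that used the values, were Cd8b1, Cd163l1 (0.78), the T cell receptor delta constant gene Trdc (0.75), Cd8a, the hyaluronan receptor Lyve1 (0.67), the smooth muscle actin Actg2 (0.66), the pentraxin Ptx3 (0.64), the cytokine Tnfsf15 (0.59), the muscle creatine kinase Ckm (0.58) and the lymphatic receptor Flt4 (0.57). Gzma ranked 88 with 0.31, and Nkg7 222 with 0.21. DKO replicate 2 was the highest sample for 5 of the 8 members other than the CD8 genes, against 20.6% of all tested genes, but for Prf1, Ctsw and Cd7 it led by at most 0.021.

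**Figure D2:**
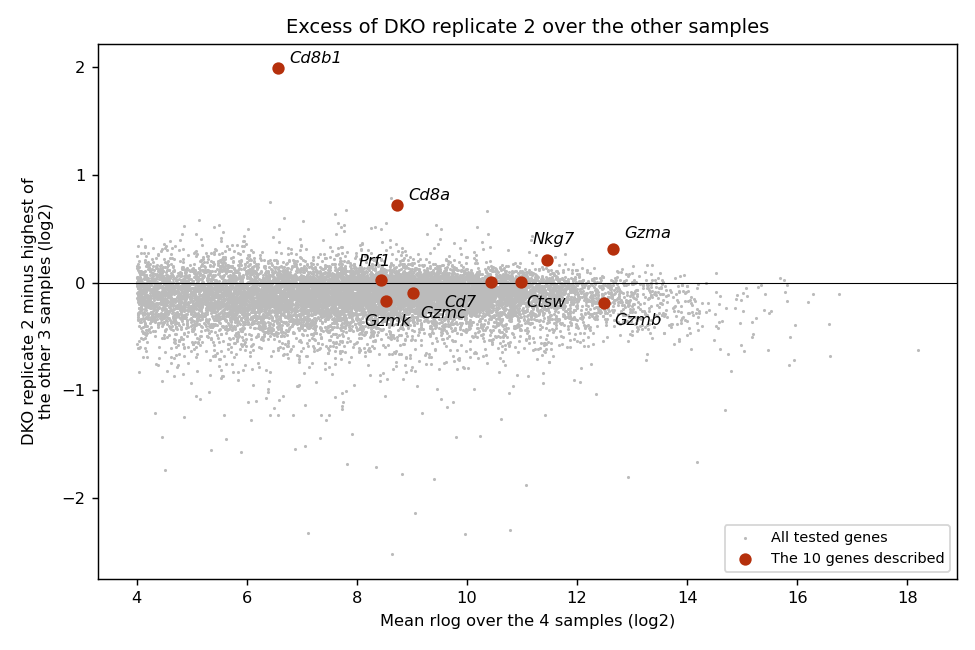
Each point is a tested gene, with mean rlog over the 4 samples (log2) on the horizontal axis and rlog in DKO replicate 2 minus the highest of the other 3 samples (log2) on the vertical axis. The 10 genes described are red; Cd8b1 at 1.99 lies far above all other genes, Cd8a at 0.72 lies at the upper edge, and Gzmb lies under 0.

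Marker lists were set beside the CD8 values of DKO replicate 2. Summed over the 20 T cell identity genes, the level (log2 of the summed linear values) was 16.41 to 16.48 in wild type and 16.26 to 16.41 in DKO. None of the 20 passed in limma, against 14.8% of all tested genes, with a median difference of -0.10. Without DKO replicate 2 itself the median difference was -0.18. Of the 12 listed CD8 T cell genes, 4 were highest in DKO replicate 2, against 20.6% of all tested genes. Cd8a and Cd8b1 are among the 4 and were chosen by the values of that sample. The inhibitory receptor Lag3 led there by 0.26 and Cd160 by 0.028. The summed level of the 12 was 14.25 to 14.46 in wild type and 13.94 to 14.29 in DKO. Such sums follow the genes with the highest levels, here Ccl5 (13.38, 13.65, 12.80 and 13.42) and Cxcr6 (12.30, 12.37, 12.23 and 12.20). This sum therefore says little on Cd8b1, which stood at 6.04 to 8.09. Of the 12, 0 rose and 1 fell in limma, against 9.92% and 4.85% of all tested genes. The fall was Ly6c2, which monocytes also express (-0.85, SE 0.0894, limma adjusted p = 9.61e-05). The median difference of the 12 was 0.13, and -0.035 without DKO replicate 2. For 14 genes of type 1 dendritic cells, which can carry Cd8a, the sums were 13.57 to 13.58 and 13.53 to 13.58. None of them was listed at 0, and Xcr1, which defines these cells, stood at 5.41, 5.37, 5.47 and 5.45. The sums of 15 genes of intraepithelial lymphocytes were 15.12 to 15.28 and 15.02 to 15.13. In limma 0 rose and 3 fell (Tyrobp, Fcer1g and Ccr9), against 9.92% and 4.85% of all tested genes. Ccr9 was not called on leaving out wild-type replicate 1 (limma adjusted p = 0.118) or DKO replicate 2 (0.0512). DKO replicate 2 was the highest sample for 4 of the 20 T cell identity genes, 5 of 13 tested dendritic cell genes and 4 of the 15 intraepithelial genes. The part of any of these cells in the Cd8a values was not tested.

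Gamma delta T cells are another lineage that can carry CD8 in the gut. Of their genes, Trdc and Cd163l1 were high in the same sample and were picked above by that excess. The list as a whole did not peak there. Its median of rlog minus each gene's mean was 0.04 in DKO replicate 2 and 0.08 in DKO replicate 1. In wild-type replicates 1 and 2 it was -0.15 and 0.008. Trdc stood at 6.26, 6.19, 6.24 and 7.004, so that DKO replicate 2 was alone above the rest, as for Cd8b1. Cd163l1, a scavenger receptor family gene of gamma delta T cells, had 8.28, 8.03, 8.71 and 9.49, and both DKO samples were above wild type. Of 11 tested genes on this list 3 rose in limma, Tcrg-C4 (0.74, SE 0.125), Sox13 (0.61, SE 0.116) and Cd163l1 (0.94, SE 0.196), and Tcrg-C1 fell (-0.34, SE 0.103), against 9.92% and 4.85% of all tested genes. The median difference was 0.094. Tcrg-C1 was not called on leaving out wild-type replicate 2 (limma adjusted p = 0.45) or DKO replicate 1 (0.0584), nor Cd163l1 with a robust variance estimate (limma adjusted p = 0.282). The summed level of the list did not separate the groups, at 11.70 to 11.93 in wild type and 11.88 to 11.90 in DKO. The part of these cells in the Cd8a and Cd8b1 values was not tested.

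Likeness of pattern was measured as the Euclidean distance between genes over the 4 samples after each gene's mean was subtracted. It was not scaled to the range over samples, which was 2.05 for Cd8b1, 1.49 for Cd8a, 0.55 for Gzma and 0.35 for Gzmb. Distances therefore cannot be compared between these genes. The nearest to Cd8b1 were Cd8a (0.90), Cd163l1 (0.93), Ptx3 (0.97), Lyve1 (0.98) and Flt4 (1.06). Cd8a was nearest to Ptx3 (0.19), Trbv12-2 (0.62), Trdc (0.75), Ccl7 (0.75) and Foxp3 (0.78), a list that shares Ptx3 with that of Cd8b1. Foxp3 was highest in wild-type replicate 2 and not in DKO replicate 2. Gzma was nearest to Rtn4rl2 (0.033), Mamld1 (0.036), Mx2 (0.071), Mras (0.072) and Snx7 (0.080). Gzmb was nearest to Nudt1, Ptrhd1, Nudt14, Ctse and Rsph1, at distances of 0.014 to 0.027.

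Cd7, an immunoglobulin superfamily protein of T and natural killer cells, was the steadiest of the 10 genes. It had 10.46, 10.47, 10.34 and 10.47, a range of 0.14, where the median range over all tested genes was 0.255. The difference was -0.06 (SE 0.0813, limma adjusted p = 0.702). Its sign turned without DKO replicate 1 (0.0069). The antisense gene Gm11775 overlaps Cd7.

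The remaining granzymes of chromosome 14 set another library apart. Gzmf stood at 7.19 in wild-type replicate 1 and at 5.40, 5.39 and 5.62 elsewhere. Gzmg had 5.52, 4.22, 4.00 and 4.08, and Gzmd 5.81, 4.46, 4.64 and 4.56. In each of these genes wild-type replicate 1 was alone above the other 3, by 1.57, 1.299 and 1.17, and they were the only 3 of all tested genes that stood over 1 above the rest in that sample, a comparison made after the values were seen. Gzmc, the next gene towards Gzmb, was also highest there, but by 0.093, and Gzmb was not. None of the 4 other granzymes that were tested passed in limma, against 14.8% of all tested genes, and nothing is read from so small a count. Gzmg had the smallest p of them (-0.82, SE 0.299, limma adjusted p = 0.0975). The sign of Gzmd and Gzmf turned without wild-type replicate 1 (0.14 and 0.10), while without wild-type replicate 2 Gzmd, Gzmf and Gzmg passed with differences of -1.21, -1.69 and -1.47 (limma adjusted p = 2.02e-05, 6.1e-07 and 2.2e-06). Gzmg also passed without DKO replicate 1 or 2 (limma adjusted p = 0.0336 and 0.0137) and Gzmf without DKO replicate 2 (limma adjusted p = 0.0475). Gzmm on chromosome 10, outside this locus, had 4.88, 5.03, 5.12 and 4.99. Gzme was under the minimum for testing, and Gzmn was listed at 0 in all samples.

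These genes are close copies. Of the 50-base stretches in the GENCODE transcripts of Gzmd, 21.9% also occur in transcripts of another gene, and the shares were 19.8% for Gzmg, 20.6% for Gzme, 7.36% for Gzmf and 4.14% for Gzmc. Gzma, Gzmb and Gzmk shared 0 such stretches. The values of the genes that share stretches are uncertain to that extent, those of Gzmd, Gzme and Gzmg the most. Cd8b1 shared 6.0%, all with genes outside this family, and Cd8a 0. The 250 bases before the start sites were 95.6% identical between Gzmd and Gzme and 84.4% between Gzmc and Gzmd. The windows below show the same stretch of 5 promoters (chromosome 14, minus strand, 5′ to 3′), with the CRE or its counterpart in capitals, because it is where the copies differ from the exact element. They lie at chr14:56234685-56234734, chr14:56132625-56132674, chr14:56120658-56120707, chr14:56211460-56211509 and chr14:56159627-56159676.
Gzmc: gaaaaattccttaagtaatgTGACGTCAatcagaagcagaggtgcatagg
Gzmd: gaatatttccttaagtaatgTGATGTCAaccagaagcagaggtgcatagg
Gzme: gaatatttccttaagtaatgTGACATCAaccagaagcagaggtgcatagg
Gzmf: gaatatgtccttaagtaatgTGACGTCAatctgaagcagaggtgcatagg
Gzmg: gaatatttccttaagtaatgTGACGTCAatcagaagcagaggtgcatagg
Gzmc, Gzmf and Gzmg held the exact 8 letters TGACGTCA, found in 1.55% of all RefSeq promoters. Counted from 1 at the first letter of that element, Gzmd differed by C4T and Gzme by G5A. Of the 3 genes that were high in wild-type replicate 1, Gzmf and Gzmg held the exact element and Gzmd did not, while Gzmc held it and was not set apart in that sample. Any part of the element in these values was not tested.

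**Figure D3:**
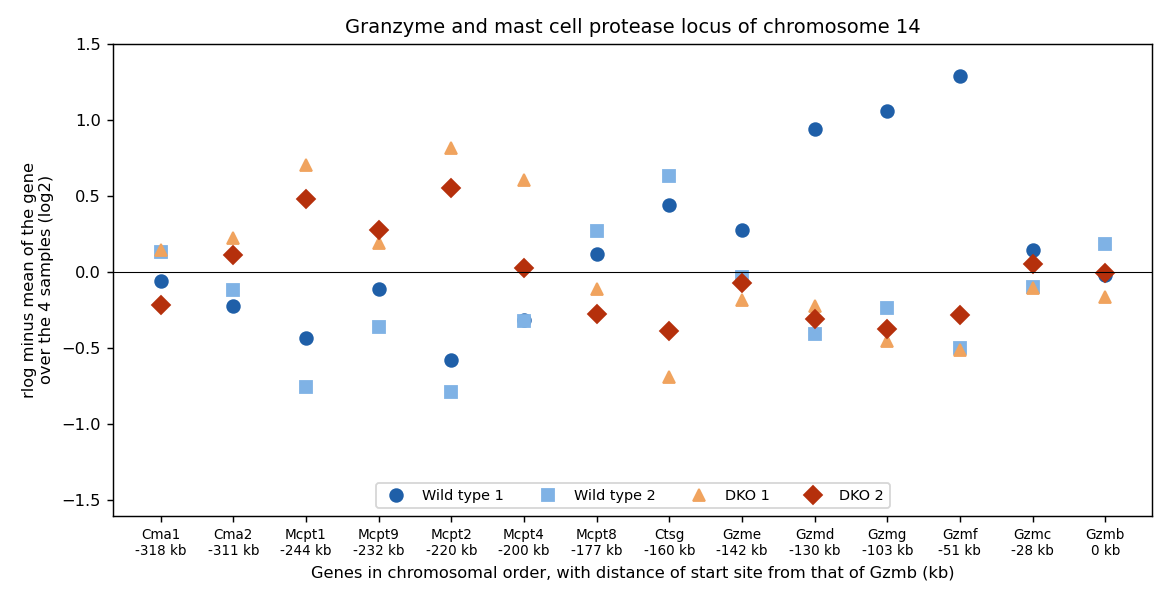
Granzyme and mast cell protease genes of chromosome 14 are set in chromosomal order along the horizontal axis, with the distance of each start site from that of Gzmb in kb; the vertical axis is rlog minus the gene's mean over the 4 samples (log2), 1 point per sample. Gzmn, listed at 0, is left out. Wild-type replicate 1 stands alone for Gzmd, Gzmg and Gzmf, and both DKO samples lie above wild type for Mcpt1, Mcpt9, Mcpt2 and Mcpt4.

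On the far side of the same locus the order of the groups was another. Of 7 tested neighbours, genes named for mast cell proteases and the neutrophil protease cathepsin G, 4 rose and 1 fell in limma. Of all tested genes 9.92% rose and 4.85% fell. The median difference of the 7 was 0.47. Mcpt2 rose by 1.37 (SE 0.111, adjusted p = 2.7e-05) and Mcpt1 by 1.19 (SE 0.113), the proteases of mucosal mast cells, with Mcpt4 (0.63, SE 0.165) and Mcpt9 (0.47, SE 0.122). Ctsg fell by 1.08 (SE 0.134, adjusted p = 0.000261). Mcpt8 was lower in both DKO samples but did not pass (-0.39, SE 0.12, limma adjusted p = 0.0513). Cma1 was at -0.07 (SE 0.14, limma adjusted p = 0.811). Mcpt4 did not pass without DKO replicate 1 (0.35, limma adjusted p = 0.109), nor Mcpt9 without wild-type replicate 2 (0.35, limma adjusted p = 0.254), and neither passed with quantile normalization (limma adjusted p = 0.0765 and 0.0851). Of 10 tested mast cell genes, Mcpt1, Mcpt2 and Mcpt4 among them, 5 rose and 1 fell, against the same shares of all tested genes. Their median difference was 0.46, and with quantile normalization 3 rose. The summed level of all 12 listed overlapped between the groups, at 12.91 to 13.04 in wild type and 13.00 to 13.10 in DKO. That of 14 neutrophil genes was 15.89 to 15.97 and 14.32 to 14.78. The part of either cell type in these differences was not tested.

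Some genes that load, activate and release granules were lower in DKO. Of 20 tested members 0 rose and 5 fell, against 9.92% and 4.85% of all tested genes, with a median difference of -0.19. The falls were Ctsc, the dipeptidyl peptidase that activates granzymes (-0.41, SE 0.0906, limma adjusted p = 0.0105), the vesicle fusion protein Vamp8 (-0.38, SE 0.0834), the lysosomal protease Ctsh (-0.33, SE 0.0827), the granule membrane protein Lamp1 (-0.30, SE 0.0907) and the syntaxin Stx11, needed for granule release (-0.30, SE 0.0776). Srgn, the proteoglycan that holds granzymes in the granule, had 15.31 and 15.45 against 15.02 and 14.97 (difference -0.38, SE 0.132, limma adjusted p = 0.0832). All of these are also expressed by myeloid cells, and the neutrophil list given above was lower in DKO. The part of those cells in the falls was not tested. Without wild-type replicate 1 the list had 1 fall and without wild-type replicate 2 it had 0, and with quantile normalization 1 rose and 1 fell. None of the 5 passed in that last fit apart from Vamp8. Lamp1 also failed without DKO replicate 1 (limma adjusted p = 0.104).

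Inhibitors of granzymes and ligands of cell death did not pass. Of 14 tested members 0 rose and 0 fell in limma, with a median difference of 0.012. Serpinb9, an inhibitor of granzyme B, stood at 11.53 and 11.55 in wild type and at 11.80 in both DKO samples (difference 0.26, SE 0.0784, limma adjusted p = 0.051). The death ligand Tnfsf10 had 8.34 and 8.46 against 8.80 and 8.62 (0.31, SE 0.0986, limma adjusted p = 0.0578), and Ifng 12.42 and 12.57 against 12.76 and 12.72 (0.24, SE 0.0912, limma adjusted p = 0.11). All 3 had groups that did not overlap. Without DKO replicate 2 Serpinb9 and Tnfsf10 passed (limma adjusted p = 0.0475 and 0.00891), and with quantile normalization Serpinb9 and Ifng did (limma adjusted p = 0.0136 and 0.0279).

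**Figure D4:**
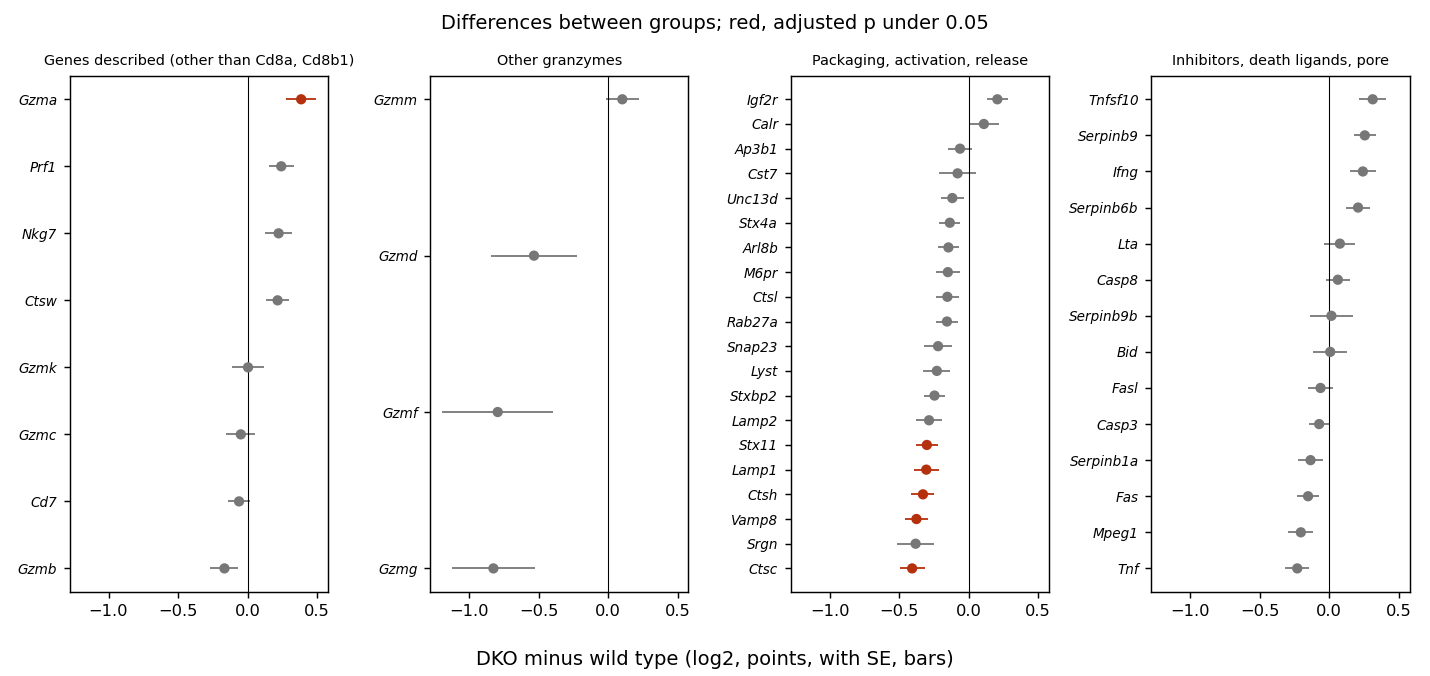
Points give the DKO minus wild-type difference (log2, horizontal axis) from the fit over all tested genes and bars its SE, for the members other than Cd8a and Cd8b1 and for 3 lists of the granule pathway. Red marks an adjusted p under 0.05, reached by Gzma and by 5 genes of granule packaging, activation and release, all 5 lower in DKO.

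Of 19 tested transcription factors of the cytotoxic and CD8 lineages 1 rose and 2 fell in limma, with a median difference of -0.13. That is near the 14.8% called over all tested genes. Id3, an inhibitor of E proteins, rose by 0.38 (SE 0.0791, limma adjusted p = 0.00716), and Nfil3 (-0.33, SE 0.0794) and Batf (-0.30, SE 0.085) fell. Both falls were lost without wild-type replicate 1 (limma adjusted p = 0.118 and 0.0553) and without wild-type replicate 2 (limma adjusted p = 0.111 and 0.335), and that of Batf without DKO replicate 1 (limma adjusted p = 0.0831). The T-box factors that drive granzyme and perforin genes did not pass, Tbx21 at 0.14 (SE 0.0993, limma adjusted p = 0.414) and Eomes at 0.29 (SE 0.153, limma adjusted p = 0.269). Eomes passed without wild-type replicate 2 (0.50, limma adjusted p = 0.0368) or DKO replicate 2 (0.50, limma adjusted p = 0.00384). Runx3, which sustains Cd8 expression, was at -0.30 (SE 0.0921, limma adjusted p = 0.0551) and passed without DKO replicate 2 (-0.38, limma adjusted p = 0.0033). Zbtb7b, the factor of the CD4 lineage, was at -0.17 (SE 0.0863, limma adjusted p = 0.234).

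Natural killer and innate lymphocyte genes, which share granzymes with T cells, were in part higher in DKO. Of 22 tested members 5 rose and 2 fell in limma, against 9.92% and 4.85% of all tested genes, with a median difference of 0.25. The rises were the receptors Klra4 (0.68, SE 0.153), Klri2 (0.54, SE 0.148), Klre1 (0.40, SE 0.11) and Klrk1 (0.33, SE 0.0776) and the chemokine Xcl1 (0.60, SE 0.169), and the falls were the adaptors Fcer1g (-0.64, SE 0.0936) and Tyrobp (-0.39, SE 0.0835), which myeloid cells also express. All 5 genes that rose were highest in DKO replicate 1. Over the list, the median of rlog minus each gene's mean was 0.21 in DKO replicate 1, -0.001 in DKO replicate 2 and -0.13 and -0.093 in wild type. Of these 7 genes Klra4 and Fcer1g passed without each sample in turn. The median difference of the list was 0.22 without wild-type replicate 1 and 0.28 without wild-type replicate 2. It was 0.15 without DKO replicate 1 and 0.35 without DKO replicate 2. Calls were lost on leaving out wild-type replicate 1 for Klrk1, Klre1, Xcl1 and Tyrobp (limma adjusted p = 0.104, 0.253, 0.073 and 0.0517) and wild-type replicate 2 for Klrk1, Klri2 and Tyrobp (0.0853, 0.293 and 0.0866). Leaving out DKO replicate 1 ended those of Klre1 and Xcl1 (0.0745 and 0.13). With quantile normalization Klri2, Klre1 and Xcl1 were not called (limma adjusted p = 0.0594, 0.0631 and 0.0547). A robust variance estimate ended the calls of Klri2 and Xcl1 (0.0513 and 0.291), and a fit with no variance trend that of Xcl1 (0.0654). Ncr1, the receptor NKp46 that defines these cells, had 6.25, 6.33, 6.78 and 6.29 and a difference of 0.24 (SE 0.152, limma adjusted p = 0.358), which passed without DKO replicate 2 (limma adjusted p = 0.0118). The summed level of the list was 14.68 to 14.71 in wild type and 14.66 to 14.69 in DKO.

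**Figure D5:**
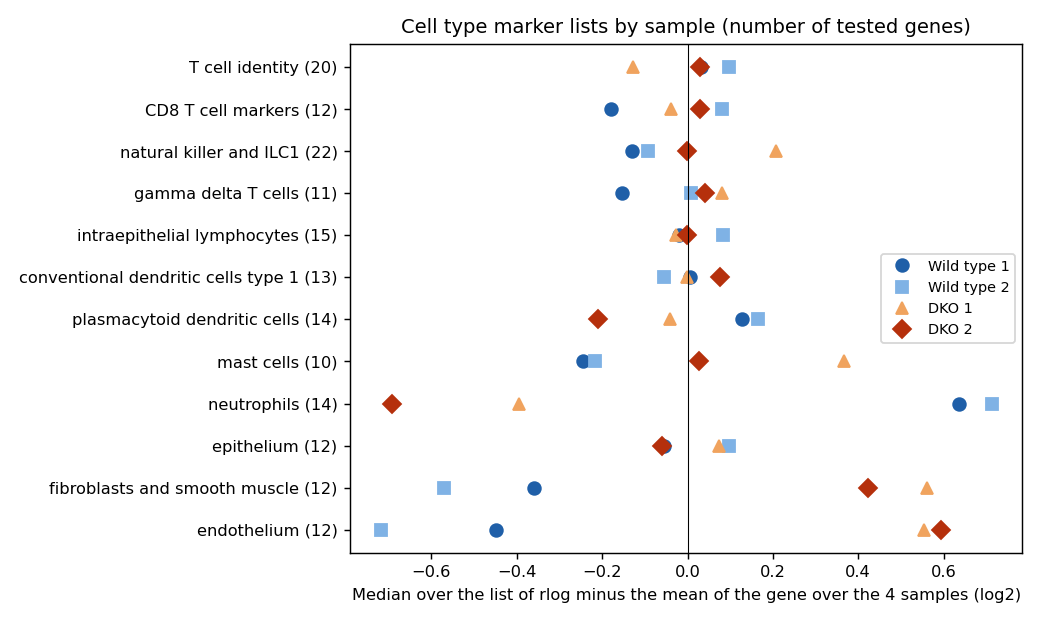
For each list of cell type markers (vertical axis, with the number of tested genes) points give the median over its genes of rlog minus the gene's mean over the 4 samples (log2, horizontal axis), 1 point per sample. The T cell identity list lies between -0.13 and 0.10, the natural killer list is highest in DKO replicate 1 at 0.21, and neutrophil, fibroblast and endothelial lists separate the groups.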

How the data were processed

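Stranded mRNA libraries, per the labels' protocols, were sequenced for 2 samples of each group. Groups follow the treatment in the labels, and replicates are numbered in accession order, which pairs nothing. The authors deposited log2 values, named rlog in the table, a transformation that DESeq2 provides. The submitters' processing notes list DESeq2, STAR 2.5.4a, BWA 0.7.14-r1136, the counter featureCounts (Subread 1.5.2), the build GRCm38, and further cutadapt 1.9.1 and bcl2fastq 2.17.1.14, with no parameters. The table has 2 further columns that match no labelled sample and were not used here, though they may have entered the shrinkage. Counts were not analysed here, so intervals from depth are not given.

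Symbols were matched for 48058 of 48526 rows through GENCODE vM21. Genes whose mean rlog reached 4 were fitted in limma 3.58.1 (R 4.3.3) with group as the only term, a variance trend, two-sided tests and Benjamini-Hochberg adjustment over all genes at 0.05. Differences are DKO minus wild type, with SE from the moderated fit. The code was tested on simulated data. Python 3.11.15, pandas 2.3.3 and matplotlib 3.10.9 were used for tables and figures. The series' design text names biological replicates without saying that they are separate animals, and p-values then reflect only how these samples vary.

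The members and the 20 gene lists were chosen with earlier results of these data known. Named genes were the members, the up to 3 genes of a list with the smallest p, called genes where a list had at most 7, defining lineage genes, the 5 genes nearest in pattern to Cd8b1, Cd8a, Gzma and Gzmb, and the 10 with the largest excess in DKO replicate 2. Lists of granule genes and marker lists that bear on the members are described. The promoter letters, the shared stretches of 50 bases and the comparison in wild-type replicate 1 were added after values were seen. Alternatives were no filter, a mean of at least 6, no variance trend, a robust variance estimate, median centring, quantile normalization, sample weights, each sample left out, and thresholds of 0.01 and 0.1.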

Additional observations from a re-analysis of the deposited data

How the results depend on the processing

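No paired analysis was possible because the labels give the samples no shared replicate numbers. The main fit called 1998 genes, of which 1195 had an adjusted p under 0.01 in limma. A separate fit with no filter on low values, over more genes, called 206 in all. Of the 10 members 1 passed, Gzma, and 0 with no filter, without the variance trend (Gzma adjusted p = 0.0584 in limma) or at 0.01. Leaving out 1 sample gave 0 to 4. The highest count, without DKO replicate 1, includes both CD8 genes, which were chosen for their values in the remaining DKO sample, so nothing is read from it. Of the genes in the granule, locus and transcription factor lists 13 passed, against 0 with no filter, 4 at 0.01 and 25 at 0.1, and 8 to 21 without 1 sample. Where a group is left with 1 sample, its spread is taken from the other group. Over 576 refits of 53 named genes, 456 kept direction and side of the threshold, 80 lost and 24 gained the call, and 16 changed sign. Gzmk turned with median centring (-0.0068), quantile normalization (-0.0050), without wild-type replicate 1 (-0.16) and without DKO replicate 1 (-0.0049). Gzmc turned without wild-type replicate 1 (0.073) and DKO replicate 1 (0.029), Cd7 without DKO replicate 1 (0.0069), Cd8a and Cd8b1 without DKO replicate 2, and Gzmd and Gzmf without wild-type replicate 1. Leaving out 1 sample, differences ranged from -0.16 to 0.17 for Gzmk, -0.17 to 0.073 for Gzmc, -0.13 to 0.0069 for Cd7, -0.30 to 1.10 for Cd8a, -0.037 to 2.02 for Cd8b1, -1.21 to 0.14 for Gzmd and -1.69 to 0.10 for Gzmf. Gzmm (-0.052), Prdm1 (0.0020), Cd4 (0.019) and Xcr1 (-0.10) changed with quantile normalization, and Ncr1 without DKO replicate 1 (-0.0049, against 0.49 without DKO replicate 2). Apart from the settings themselves, the cause was not tested. The depth of the libraries is unknown, so its limit on low genes cannot be given.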
